A study of Homo sapiens with 6 samples.

Results

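MOLM-13 is a human acute myeloid leukaemia (AML) line of the monocytic type, and this account describes which genes it expressed in its control state. Both control libraries of the series were used, 2 of 6 samples, chosen from the labels: the genotype is given as control and doxycycline as none. The series design adds that the controls carry a control vector. The other 4 libraries, from cells labelled CaMK2D-KO with doxycycline, were not used, and nothing here is compared with them. The labels do not say whether the 2 controls came from separate cultures, so their spread may be technical only. Poly-A RNA was sequenced, and the deposited table gives a read count and an FPKM value (fragments per 1000 bases of exon and per 1000000 counts of the library) for each of 24878 genes. The length is that of all annotated exons of a gene together, which can exceed that of the transcripts made. Orders of genes by FPKM, and calls near a limit, depend on this length. A gene is called on here at an FPKM of at least 1 in both controls, high at 50 or more in both, off below 0.1 in both, and low otherwise. With 1 group there is no contrast to test, so levels are given for each library, control 1 first, and p-values are not.

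As background, MOLM-13 carries a fusion of KMT2A, a histone methyltransferase, with MLLT3, a partner of the transcription elongation machinery, and an internal tandem duplication in the receptor tyrosine kinase FLT3. KMT2A fusion proteins are known to keep the late HOXA genes and their cofactor MEIS1 active. In normal myeloid development SPI1 and CEBPA direct progenitors towards granulocytes and monocytes, and the serine proteases of the primary granules are made at the promyelocyte stage.

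Total counts were 15456770 in control 1 and 21081298 in control 2, with at least 1 count for 19864 and 20790 genes. For a gene of 2 kb an FPKM of 1 corresponds to 30.9 and 42.2 counts, and a count of 0 allows up to 3 counts, or 0.194 and 0.142 CPM (counts per 1000000 counts of the library), which covers counting error only. Among the 15022 protein-coding genes in the table, 9407 were on in both controls (62.6%), of which 668 were high (4.45%), and 2620 were off (17.4%). Over all 24878 genes 42.3% were on, against 10.7% of 2334 lincRNA genes and 11.2% of 2707 antisense genes. The median protein-coding gene that was on stood at 7.89 FPKM. Protein-coding genes took 98.3% ± 0.13 of the counts (SD, n = 2), 85 ribosomal protein genes 13.5% ± 1.89 and the 13 mitochondrially encoded genes 2.79% ± 0.374. All 12 genes of a list of housekeeping genes were on, from TBP, a general transcription factor, at 15.3 and 15.4 FPKM to EEF1A1, a translation elongation factor, at 5716 and 5290.4.

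**Figure D1:**
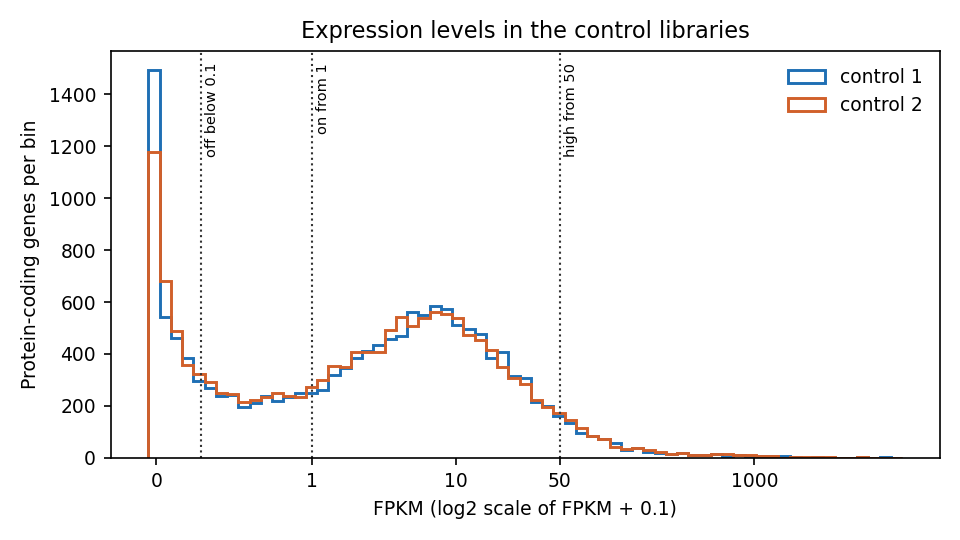
Number of protein-coding genes (vertical axis) by FPKM (horizontal axis, log2 scale of FPKM + 0.1) in control 1 and control 2, with dotted lines at the limits for off, on and high. Both libraries have a group of genes near 0 and a broad group around a median of 7.89 FPKM for genes that were on, and 62.6% of genes lie above 1 in both.

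Levels of genes whose exons overlap those of another gene are uncertain here. The labels name an HTSeq version but no counting options, and the library kit is not stated to keep strand. Of 7786 protein-coding genes with no exonic base shared with another gene in GENCODE release 29, 62.1% were on. The share on was 68.4% for 5902 genes that shared up to 25%. Of 177 that shared over 75% of their exonic bases, 2.82% were on and 59.3% were off. CD68, a lysosomal protein of macrophages, had 0 counts in both controls and shares 85.8% of its exonic bases. ALDOA, the main muscle-type aldolase of glycolysis, stood at 0.397 and 0.509 FPKM and shares 53.5%, and IFNAR2, a chain of the type I interferon receptor, at 0.168 and 0.134 with 83.2% shared. Genes over 25% shared are marked as overlapping below. Whether and how far the overlap lowers their values was not tested.

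Of the 5 genes that mark this line, FLT3, MPO and SPI1 were high, HOXA9 was on and MEIS1 was on at a low level. FLT3, the receptor for FLT3 ligand (chromosome 13, 28003274 to 28100592, minus strand), stood at 257 and 208 FPKM, a mean of 233 ± 34.6 (SD, n = 2). MPO, the myeloperoxidase of the primary granules (chromosome 17, 58269856 to 58280935, minus strand), stood at 189 and 342 FPKM, a mean of 266 ± 108. MPO was higher in control 2, and FLT3 in control 1. SPI1, the ETS factor PU.1 (chromosome 11, 47354860 to 47378576, minus strand), stood at 137 and 168 FPKM. HOXA9, a homeobox factor (chromosome 7, 27162435 to 27175180, minus strand), stood at 29.1 and 13.6 FPKM and is overlapping, with 27.0% of its exonic bases shared. MEIS1, the homeobox cofactor of HOXA9 (chromosome 2, 66433452 to 66573869, plus strand), stood at 1.76 and 1.94 FPKM from 298 and 448 counts, just above the limit for on in both libraries. The order FLT3, SPI1, HOXA9, MEIS1 was the same in both controls, while MPO lay below FLT3 in control 1 and above it in control 2.

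The granule protein genes included some of the most abundant messages in the cells. Of 25 listed granule genes 21 were in the table, and 15 of these were on (71.4%, against 62.6% of protein-coding genes). Of the 21, 12 were high, beside 4.45% of protein-coding genes, and the list took 0.927% and 1.06% of all counts. Outside mitochondrial and ribosomal protein genes, the 10 protein-coding genes with the highest mean FPKM were EEF1A1, EEF2, SRGN, FTL, ACTB, ELANE, AZU1, ACTG1, TMSB4X and GAPDH, so 3 of 10 were members of the granule list. SRGN, the proteoglycan core protein that packs granule contents, stood at 1564 and 2365 FPKM. ELANE, the neutrophil elastase, stood at 1076 and 831 FPKM. AZU1, the antimicrobial protein azurocidin, stood at 845 and 989. Below them in mean level came PRSS57, a granule serine protease, at 577 and 878, CTSG, cathepsin G, at 1029 and 408, RNASE2, a granule ribonuclease, at 746 and 582, and PRTN3, proteinase 3, at 387 and 736. SRGN stood apart from the rest of the list in both libraries, whereas from ELANE to PRTN3 each gene overlapped in range with the next.

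AZU1, PRTN3, ELANE and CFD, the complement factor D protease, lie next to each other on chromosome 19 between 825097 and 863630, a span of 38534 bases (GRCh38, GENCODE release 29). They are the only 4 genes of the deposited table in that span, and all 4 were high. CFD stood at 423 and 299 FPKM. LYZ, the lysozyme, stood at 79.5 and 219.6 FPKM and is overlapping. Proteins of later granules were at the other end. LTF, lactoferrin of the secondary granules, stood at 0.0305 and 0.0112 FPKM, CAMP, cathelicidin, at 0.174 and 0.0637, and MMP9, gelatinase B, at 1.08 and 0.122; EPX, the eosinophil peroxidase, stood at 0.406 and 0.105. LTF was off, together with SERPINB10, a serpin of bone marrow cells, at 0.0479 and 0.0527.

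Monocyte and macrophage markers were more mixed. Of 30 in the table, 21 were on (70%, against 62.6% of protein-coding genes), 6 low and 3 off. S100A9 and S100A8, subunits of calprotectin, stood at 119 and 122 and 54.02 and 51.4 FPKM. TYROBP, the adaptor of activating myeloid receptors, stood at 51.1 and 58.2 FPKM and CD4, a monocyte as well as T cell surface protein, at 42.7 and 57.7. CSF1R, the receptor for macrophage colony-stimulating factor, was on at 6.04 and 7.87, and ITGAM (CD11b) at 5.03 and 6.72. Of other markers on, FCGR1A (CD64), a high-affinity Fc receptor, stood at 28.7 and 14.003 FPKM, MNDA, a nuclear protein of myeloid cells, at 22.2 and 14.8 and ITGAX (CD11c) at 2.597 and 2.68. Some markers of mature monocytes were low or off. CD14, the lipopolysaccharide co-receptor, stood at 0.515 and 1.56 FPKM, CD163, a haemoglobin scavenger receptor, at 0.312 and 0.196, FCGR3A (CD16) at 0.0437 and 0.01604 and FCN1, the monocyte lectin ficolin 1, at 0 and 0.0571. CD14 was below 1 in control 1 and above it in control 2.

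Stem cell and other lineage markers were mostly off or low. Of 13 stem and progenitor markers in the table, 3 were on (23.1%, against 62.6% of protein-coding genes). They were MSI2, an RNA-binding protein, at 4.298 and 3.71 FPKM, KIT, the stem cell factor receptor, at 3.29 and 1.799, and MEIS1. CD34 stood at 0.0281 and 0.0772 FPKM, and MECOM and ERG, transcription factors of stem cells, had 0 counts in both libraries. The count of 3 depended on the threshold, with 5 on at 0.5 times the limit and 1 at 2 times. Of 12 erythroid and megakaryocyte markers 5 were on (41.7%): TFRC, NFE2, EPOR, GP9 and GP1BA. TFRC, the transferrin receptor, stood at 54.8 and 49.2 and NFE2, a transcription factor also made in granulocytes, at 37.3 and 37.4. EPOR, the erythropoietin receptor, stood at 7.46 and 10.03. The platelet glycoproteins stood at 4.37 and 5.71 for GP9 and 2.302 and 4.25 for GP1BA. KLF1, TAL1 and EPB42 had 0 counts in both. Lists of other lineages often lack members in the table, which holds only part of each list, and genes outside it were not analysed here. Not in the table were 12 of 24 erythroid and megakaryocyte, 10 of 23 T and NK cell and 9 of 21 non-haematopoietic markers.

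A few lymphoid genes were on. Of 10 B cell genes in the table, 3 were on (30%, against 62.6% of protein-coding genes): BANK1, PAX5 and CD79A. BANK1, a B cell adaptor, stood at 7.49 and 4.64 FPKM and PAX5, the B cell identity factor, at 2.43 and 3.26. CD79A, a B cell receptor chain, stood at 1.29 and 1.105. By control 2 alone, without control 1, 5 of the 10 B cell genes were on. CD79B stood at 0 and 0.0456 and CD22 at 0.0105 and 0, and both were off. Of 13 T and NK cell genes 4 were on (30.8%). NKG7, a granule membrane protein, was high at 120.4 and 81.6 FPKM, NCAM1 (CD56) stood at 9.3004 and 9.27, TRAC, a T cell receptor constant chain, at 11.5 and 5.78, and PRF1, perforin, at 3.22 and 3.41. CD247, the zeta chain of the T cell receptor complex, stood at 0 and 0.0353 FPKM, BCL11B at 0.0247 and 0, GZMB at 0.0917 and 0, GNLY at 0 and 0.0466, and GATA3 had 0 counts in both. Of 12 non-haematopoietic markers 2 were on (16.7%), KRT18 at 8.89 and 3.89 and ACTA2 at 4.13 and 4.798, the latter overlapping. ALB and DCN had 0 counts in both. In such bulk RNA a few cells with much of a transcript and many cells with little cannot be told apart.

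**Figure D2:**
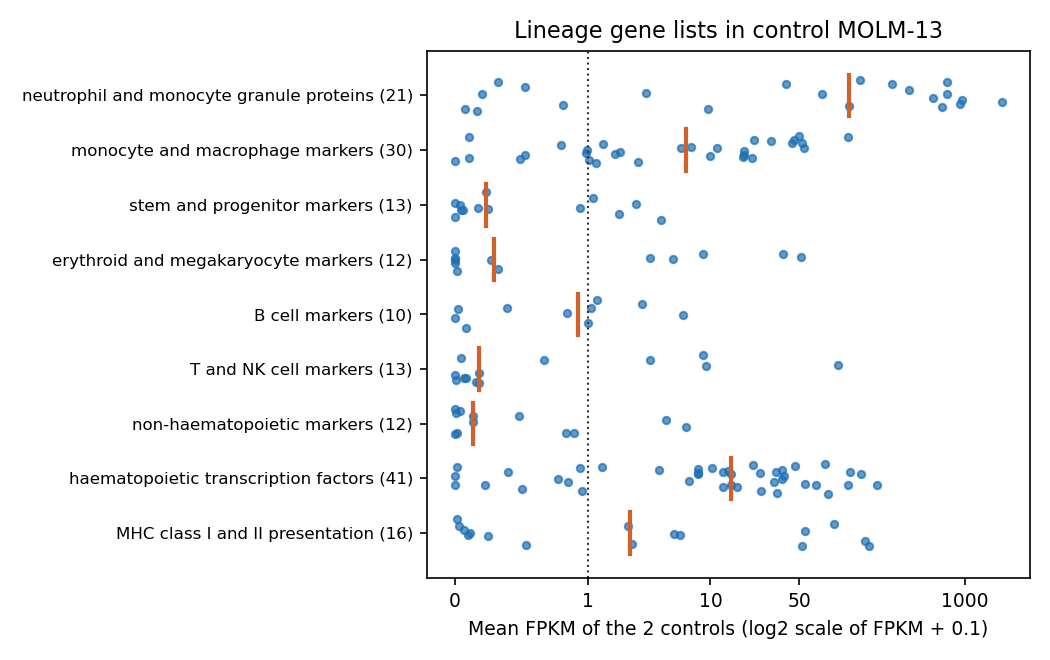
Mean FPKM of both controls (horizontal axis, log2 scale of FPKM + 0.1) for the members of 9 lineage lists found in the table; each point is a gene, the orange bar is the list median, and the dotted line is 1 FPKM. Granule genes have a median of 123 FPKM, while the T and NK cell list has a median of 0.0549 and the stem and progenitor list of 0.0755.

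Of 41 haematopoietic transcription factors in the table, 31 were on (75.6%, against 62.6% of protein-coding genes), 7 of them high, 6 were low and 4 off. MYC, the growth regulator, stood at 206 and 199 FPKM, SPI1 at 137 and 168, CEBPA, the granulocyte-monocyte factor, at 121 and 129 with overlap, and MEF2D at 122 and 119. MYC lay above the others in both libraries, and SPI1 above CEBPA and MEF2D, whose ranges overlapped. IRF8, which favours monocytes, stood at 69.2 and 98.7 FPKM, MYB, a progenitor factor, at 84.2 and 74.1, and GFI1, a transcriptional repressor, at 61.9 and 48.3. RUNX1 stood at 37.6 and 27.6 FPKM, while GATA2, a stem and mast cell factor, was low at 0.827 and 0.904. CEBPE, which drives the secondary granule genes, was low and uneven at 0.333 and 1.47. TAL1, ERG, GFI1B and EGR2 were off.

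Antigen presentation was split by class. HLA-B and HLA-C, classical MHC class I heavy chains, stood at 123 and 231 and at 106 and 225 FPKM, and their partner B2M at 98.7 and 89.3. The class II chains HLA-DRA, HLA-DRB1, HLA-DPA1 and HLA-DQA1 and the loading factor HLA-DMB were off, HLA-DQB1 was low at 0.0132 and 0.513 and HLA-DMA was on at 2.04 and 2.68. Their activator CIITA stood at 0.0561 and 0.105 FPKM. CD74, the class II invariant chain, was high at 52.6 and 58.2 FPKM. HLA genes differ between people and resemble each other, so counts of single HLA genes are uncertain.

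Promoters of genes that were on held more CpG than those of genes that were off, though some lists had low medians even for genes on. RefSeq promoters (GRCh38.p14, 250 bases before to 50 after the start) were matched by symbol for 12648 genes, with the first listed start taken per gene. CpG, a C followed by G, is depleted in most of the genome and kept at CpG island promoters. The ratio of observed to expected CpG had a median of 0.866 in 519 high genes and 0.857 in 7244 other genes that were on, against 0.692 in 2648 low and 0.549 in 2237 off genes. The middle 50% ran from 0.730 to 0.964 for all genes on and from 0.245 to 0.814 for genes off, so the ranges share values. The 9 granule genes that were on and matched had a median of 0.276, with CTSG at the low end and CTSA, a lysosomal carboxypeptidase, at the high end with 0.845. The 44 receptor genes and 69 lineage genes that were on and matched also had low medians, 0.437 and 0.462, against 0.935 for 71 driver, 0.841 for 75 kinase and 0.822 for 92 metabolic genes. Medians of matched genes off were lower in each class, at 0.353 for 20 receptor and 0.341 for 27 lineage genes. They were 0.811 for 4 driver, 0.527 for 19 kinase and 0.372 for 10 metabolic genes.

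The following promoters of genes that were on show the contrast between lists, each 5′ to 3′ on the gene's strand, with every CpG in capitals. FLT3 (chr13:28100527-28100826, minus strand) holds 34 CpG, HOXA9 (chr7:27165488-27165787, minus) 22 and MEIS1 (chr2:66434875-66435174, plus) 18. RNASE2 (chr14:20955237-20955536, plus) and CTSG (chr14:24576201-24576500, minus) hold 3 each, with ratios of 0.15 and 0.143 against 0.83 for FLT3.
FLT3: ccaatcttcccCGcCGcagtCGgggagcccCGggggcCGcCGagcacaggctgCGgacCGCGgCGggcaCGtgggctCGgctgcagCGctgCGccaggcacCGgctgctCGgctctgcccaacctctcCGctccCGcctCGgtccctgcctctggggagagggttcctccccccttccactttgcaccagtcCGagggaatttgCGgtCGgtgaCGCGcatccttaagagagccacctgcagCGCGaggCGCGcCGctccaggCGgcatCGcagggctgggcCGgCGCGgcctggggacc
HOXA9: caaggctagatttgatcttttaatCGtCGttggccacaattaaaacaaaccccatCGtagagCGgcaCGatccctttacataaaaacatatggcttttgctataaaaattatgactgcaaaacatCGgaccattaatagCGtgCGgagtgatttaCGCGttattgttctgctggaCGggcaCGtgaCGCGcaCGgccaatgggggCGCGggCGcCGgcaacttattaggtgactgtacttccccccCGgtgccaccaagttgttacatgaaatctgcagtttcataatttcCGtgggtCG
MEIS1: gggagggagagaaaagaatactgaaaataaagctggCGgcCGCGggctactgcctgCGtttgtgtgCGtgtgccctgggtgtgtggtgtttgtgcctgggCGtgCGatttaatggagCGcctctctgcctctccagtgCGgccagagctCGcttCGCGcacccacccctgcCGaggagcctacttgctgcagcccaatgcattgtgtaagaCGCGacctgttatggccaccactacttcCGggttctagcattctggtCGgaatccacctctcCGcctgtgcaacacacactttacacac
RNASE2: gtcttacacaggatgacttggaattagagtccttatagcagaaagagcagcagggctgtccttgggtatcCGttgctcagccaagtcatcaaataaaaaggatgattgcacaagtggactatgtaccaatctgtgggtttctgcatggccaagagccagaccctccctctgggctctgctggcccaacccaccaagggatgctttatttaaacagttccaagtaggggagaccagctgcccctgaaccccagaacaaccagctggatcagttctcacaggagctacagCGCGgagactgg
CTSG: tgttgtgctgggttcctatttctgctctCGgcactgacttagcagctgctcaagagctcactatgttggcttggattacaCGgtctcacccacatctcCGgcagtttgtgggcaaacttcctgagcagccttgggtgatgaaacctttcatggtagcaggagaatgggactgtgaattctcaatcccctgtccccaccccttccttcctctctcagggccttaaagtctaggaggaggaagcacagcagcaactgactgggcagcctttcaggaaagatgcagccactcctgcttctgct

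FLT3 with 34 CpG and RNASE2 with 3 CpG were both high, and MEIS1 with 18 CpG was just above the limit for on. The number of CpG did not order these 5 genes by FPKM. RNASE2 and CTSG were chosen for display after their values were seen, so this says nothing about other genes. The TATA box motif TATAAA, searched on both strands, was present in 5.15% of 7763 promoters of genes that were on or high, 10.8% of those off and 11.95% of 27305 promoters in the whole table. It was in 8.67% of 519 high, 4.90% of 7244 other genes on and 8.72% of 2648 low. The order of genes on and off differed between lists. TATAAA was in 10 of 44 and 2 of 20 promoters in the receptor lists, and in 8 of 92 and 1 of 10 in the metabolic lists. It was found in the HOXA9 promoter, from position -150 relative to the start, and not in the other 4 shown. GGAA, the core letters bound by ETS factors such as SPI1, was found on either strand in 95.7% of promoters of genes on or high and in 94.8% of those off. The longer CCGGAAG was in 22.1% and 5.99% and in 10.7% of the whole table. CCGGAAG itself holds a CpG, and promoters of genes on or high had a median of 27 CpG against 13 for those off. How far CpG content accounts for the difference was not tested. In the lineage lists CCGGAAG was in 3 of 69 promoters of genes on or high (4.35%) and 2 of 27 of those off (7.41%). The driver, receptor, kinase and metabolic lists went the other way, but their genes off had it in 0 of 4, 0 of 20, 1 of 19 and 0 of 10 promoters. Numbers this small do not tell the lists apart. A motif match is a description of the letters only.

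HOX genes that were on came mainly from the HOXA and HOXC clusters. Of 39 listed HOX genes 26 were in the table and 14 were on, beside 62.6% of protein-coding genes. The HOXA cluster had 8 of 11 on, among them HOXA9 as above, HOXA10 at 17.3 and 8.86 FPKM, HOXA11 at 14.4 and 8.698, HOXA5 at 8.34 and 3.58, HOXA13 at 6.79 and 3.57, HOXA6 at 3.27 and 1.33 and HOXA7 at 1.61 and 1.18. From HOXA9 to HOXA11 each gene overlapped in range with the next. HOXA3 stood at 1.37 and 0.551 FPKM and HOXA2 at 0.763 and 0.328. HOXA4 had 0 counts in both, with 47.3% of its exonic bases shared, and HOXA6, HOXA7, HOXA10 and HOXA11 are also overlapping. Leaving out genes over 25% shared left 3 HOXA genes on. Of 8 HOXB genes HOXB9 alone was on, at 3.41 and 3.73 FPKM, and 2 were on without control 1. HOXB8 stood at 0.978 and 1.32, HOXB7 at 0.339 and 0.341, HOXB3 at 0.243 and 0.216, HOXB5 at 0.0317 and 0.09297 and HOXB4 at 0 and 0.0126, and HOXB6 and HOXB13 had 0 counts in both.

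The HOXC cluster had 5 of 6 on, HOXC10 at 14.96 and 12.8 FPKM, HOXC4 at 10.3 and 9.09, HOXC6 at 3.05 and 2.68, HOXC8 at 2.26 and 2.21 and HOXC9 at 2.08 and 1.67. HOXC5 had 0 counts in both and shares 59.9% of its exonic bases. HOXD12, the HOXD gene in the table, had 0 counts in both. Among the group 9 paralogues HOXA9 held 84.1% and 71.6% of the summed FPKM, HOXB9 9.85% and 19.6% and HOXC9 6.01% and 8.76%. Among the cofactors of HOX proteins, PBX2 at 17.3 and 23.04 and PBX3 at 13.03 and 10.99 FPKM exceeded MEIS2 at 4.03 and 3.42, PKNOX1 at 3.81 and 2.82 and MEIS1. MEIS3 was off.

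**Figure D3:**
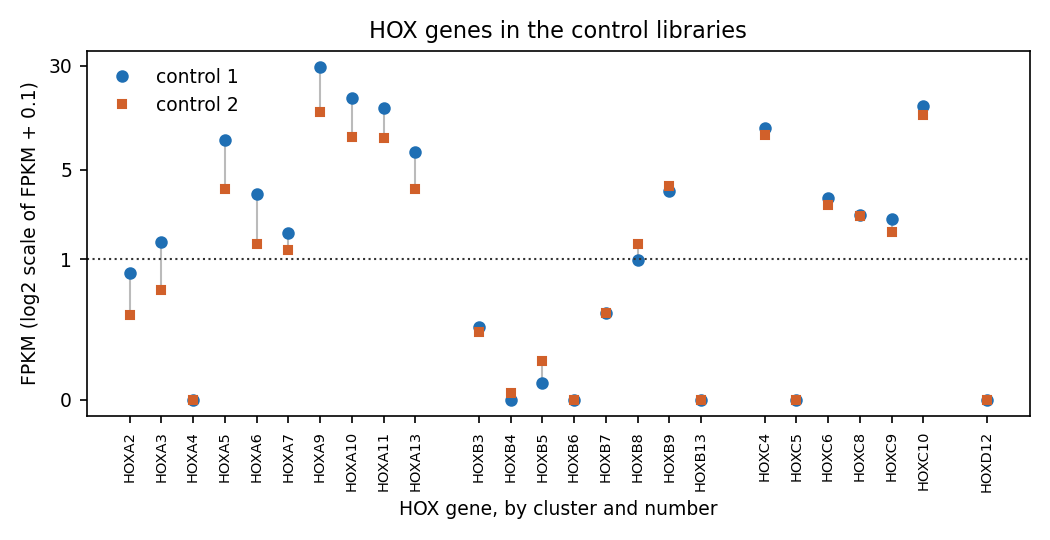
FPKM (vertical axis, log2 scale of FPKM + 0.1) of 25 HOX genes in the table, by cluster and number (horizontal axis), in control 1 (circles) and control 2 (squares), with 1 FPKM dotted. All HOXA genes drawn that have counts are higher in control 1, while the HOXC genes lie close together.

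The partners of the KMT2A fusion were nearly all on, with the fused genes themselves near the limit for on. Of 17 such genes in the table, 16 were on (94.1%, against 62.6% of protein-coding genes). They were led by MLLT1 at 44.02 and 53.6 FPKM and DOT1L, the histone H3 methyltransferase recruited by fusion proteins, at 31.04 and 23.3. CDK9, the elongation kinase, stood at 21.8 and 25.01, and AFF1 at 27.7 and 17.6. MEN1, the menin scaffold, stood at 8.79 and 11.4 FPKM. MLLT3 stood at 1.33 and 1.35 FPKM and KMT2A at 1.14 and 0.906, from 553 and 598 counts over a long exonic length. Reads of a fusion transcript count towards either gene, and fused and normal transcripts were not separated.

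Genes recurrently mutated in AML were on with few exceptions. All 33 were in the table, 30 were on (90.9%, against 62.6% of protein-coding genes) and none was off. NPM1, a nucleolar chaperone, was highest at 346 and 279.5 FPKM, followed by FLT3, CEBPA and IDH2, the mitochondrial isocitrate dehydrogenase, at 66.8 and 64.6. WT1, a zinc finger factor, stood at 16.4 and 14.7 FPKM, DNMT3A at 1.87 and 1.73 and TET2 at 1.86 and 1.38. The 3 low genes were GATA2, KMT2A, which lay below 1 in control 2 only, and U2AF1, a splicing factor, at 0.972 and 0.943. U2AF1 has a near-identical copy in this genome build, U2AF1L5, listed at 0.0233 and 0.0299 FPKM, so its value is uncertain.

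Cell cycle and survival genes had a dominant member in most families. CCND3 held 93.8% and 94.2% of the summed FPKM of the D-type cyclins, at 116 and 111 FPKM, with CCND2 at 6.09 and 6.66 and CCND1 at 1.55 and 0.177. CDKN1A, the p21 inhibitor, was the highest of the cell cycle list at 152 and 289 FPKM, above CDKN2C at 41.7 and 43.8, CDKN2D at 29.1 and 28.5 and CDKN1B at 24.7 and 24.1, and CDKN1C was off. Of 17 BCL2 family genes 13 were on (76.5%, against 62.6% of protein-coding genes) and none off. MCL1 at 62.4 and 65.1 FPKM held 66.7% and 69.6% of the summed level of the survival members, against 15.2% and 16.0% for BCL2, at 14.3 and 14.98. BCL2L1 stood at 5.13 and 4.84, with overlap, and BCL2A1 at 5.88 and 2.31. Among the pro-death members BAX stood at 35.6 and 71.5 FPKM, BIK at 35.7 and 32.6 and PMAIP1 (NOXA) at 28.1 and 28.2, and BOK was low at 0.0955 and 0.122.

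Among cytokine receptors FLT3 was the highest and several receptor pairs were on together. Of 39 in the table, 24 were on (61.5%), a share close to that of protein-coding genes, and 5 were off. IL3RA, the alpha chain for interleukin 3, stood at 32.2 and 29.96 FPKM, CSF2RA at 12.7 and 15.4, and CSF2RB, the beta chain they share, at 5.11 and 6.04. CSF3R, the G-CSF receptor, stood at 15.03 and 22.4 FPKM. IL6R, which binds interleukin 6, was high at 68.1 and 64.7, while its signalling partner IL6ST (gp130) was low at 0.5501 and 0.551, with 8.6% of its exonic bases shared. IL17RA stood at 58.7 and 64.9 and TNFRSF1A at 46.1 and 33.3. IFNGR1 and IFNGR2, the chains for interferon gamma, stood at 27.4 and 26.6 and 11.7 and 9.36. IL2RB, IL2RA and IL2RG were low, IL2RG with overlap at 0.0938 and 0.137. IL9R had 0 counts in both, and IL5RA, PRLR and IL1R1 were off.

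Most ligands of these receptors were low or off. Of 20 in the table, 8 were on and 8 off (40% each, against 62.6% and 17.4% of protein-coding genes). TGFB1 was high at 111 and 72.2 FPKM, CCL5, a chemokine, at 111 and 63.9, and TNF, at 31.8 and 45.1, and VEGFA, at 25.8 and 26.4, were on. FLT3LG, the ligand of FLT3, was off at 0 and 0.0833, with overlap, CSF2, at 0.0822 and 0, was off, and CSF3 and IL6 had 0 counts in both. KITLG, the ligand of KIT, was on at 2.22 and 1.96 FPKM.

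Chemoattractant receptors were on in 8 of 21 (38.1%, against 62.6% of protein-coding genes). CXCR4, the receptor for CXCL12, was high at 96.1 and 73.6 FPKM. CCR2, the monocyte receptor for CCL2, stood at 20.3 and 70.1, CX3CR1 at 21.5 and 14.7 and CCR1 at 13.4 and 17.4. The neutrophil receptors CXCR1 at 0 and 0.0191 and CXCR2 at 0.1602 and 0.235, and FPR1 at 0.125 and 0, were not on. CXCR5, which shares 88.6% of its exonic bases, and FPR2 had 0 counts in both.

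AML surface antigens covered a wide range, with 15 of 26 on (57.7%), a share close to the 62.6% of protein-coding genes. CD70, a ligand of the tumour necrosis factor family, was highest at 88.98 and 102 FPKM, then SIRPA, the receptor for CD47, at 72.5 and 57.1, IL3RA (CD123) and CD99 at 20.9 and 19.7. CD33 stood at 8.11 and 9.25 FPKM, CLEC12A at 3.42 and 5.15, CD47 at 7.13 and 6.14 and CD44 at 19.95 and 10.8, while CD38 was low at 0.906 and 1.33. CD27, the receptor for CD70, was off at 0.0459 and 0.0336, with overlap. ANPEP (CD13) at 0.0531 and 0, CD276 at 0 and 0.0257, THY1 and CD274 at 0 and 0.0924 were also off.

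Among receptor tyrosine kinases FLT3 and RET stood highest. Of 45 in the table, 16 were on (35.6%, against 62.6% of protein-coding genes), 12 low and 17 off (37.8%, against 17.4%). RET, a receptor for glial-derived growth factors, stood at 58.2 and 34.8 FPKM, apart from FLT3 above it and from all others below. FGFR1 at 14.7 and 12.5, INSR, the insulin receptor, at 15.4 and 11.8 and EPHB4 at 11.4 and 12.7 followed, and each overlapped in range with the next. CSF1R, EPHA1, at 7.52 and 6.35, FGFR3, at 4.34 and 6.26, and KIT were on at lower levels. ERBB2 stood at 0.0627 and 0.0552 FPKM and PDGFRB at 0.0272 and 0.0532, and ROR1, MERTK and PTK7 had 0 counts in both. FLT1, at 2.31 and 0.615 FPKM, AXL, at 1.34 and 0.341, and DDR2, at 0.947 and 0.0928, were over 2-fold higher in control 1.

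Cytoplasmic tyrosine kinases were on in 21 of 30 (70%, against 62.6% of protein-coding genes), and none was high. SYK, which acts below ITAM receptors, stood at 63.5 and 49.6 FPKM, CSK, the inhibitor of SRC kinases, at 59.1 and 47.9, TYK2 at 40.9 and 44.8 and PTK2B at 43.4 and 41.3. SYK and CSK overlapped in range, as did TYK2 and PTK2B. In the SRC family LYN, at 38.1 and 34.2 FPKM, and FYN, at 14.1 and 14.1, held 43.5% ± 5.16 and 16.9% ± 0.665 of the summed level (SD, n = 2). BLK had 0 counts in both. Among JAK kinases TYK2 held 61.6% and 69.0% and JAK1 32.5% and 25.4%, with JAK2 at 1.68 and 1.499 FPKM and JAK3 at 2.203 and 2.12.

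**Figure D4:**
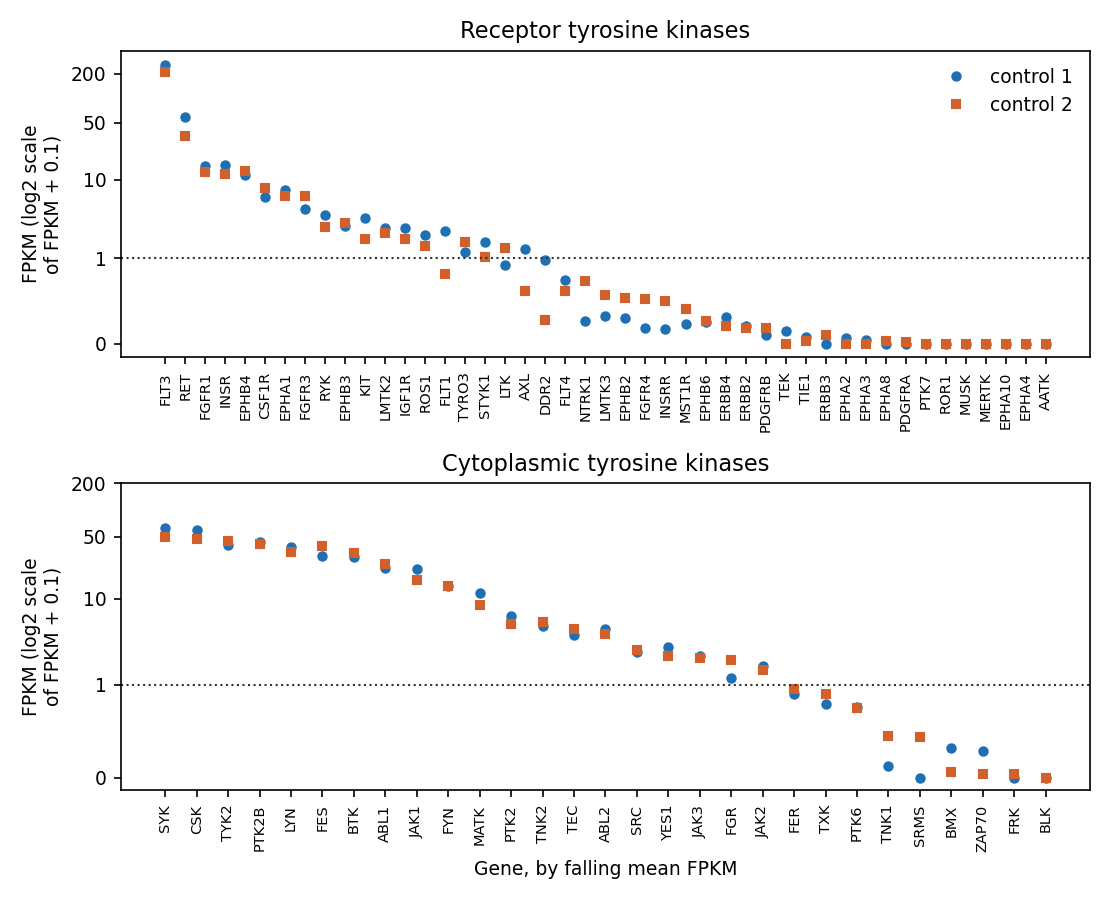
FPKM (vertical axis, log2 scale of FPKM + 0.1) of 45 receptor and 29 cytoplasmic tyrosine kinases (horizontal axis, by falling mean) in control 1 (circles) and control 2 (squares), with 1 FPKM dotted. FLT3 stands above all other receptor kinases in both libraries and 16 are on, while 20 cytoplasmic kinases drawn are on over a flatter range.

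Among 28 kinases of RAF-MAPK, PI3K-AKT and PIM signalling 25 were on (89.3%, against 62.6% of protein-coding genes) and PIM1 was highest. PIM1, a survival kinase induced by STAT5, was high at 319 and 379 FPKM and held 81.4% and 84.2% of the summed level of the PIM kinases, with PIM2 at 45.5 and 42.8 and PIM3 at 27.4 and 28.5. Among PI3K catalytic subunits the leukocyte form PIK3CD, at 40.3 and 45.1 FPKM, held 63.7% and 69.2%, against 3.73% and 2.81% for PIK3CA, which is overlapping. ARAF stood at 18.1 and 16.1 FPKM, above BRAF at 1.397 and 1.14. AKT2 held 45.6% and 54.8% of the AKT total and lay above AKT1, at 9.38 and 8.56 FPKM. MAPK10, the neuronal JNK, was the 1 kinase of 28 that was off. Of 23 cell cycle and checkpoint kinases 22 were on (95.7%). CDK4 was highest at 46.8 and 50.6 FPKM, overlapping, and CDK6 stood at 15.4 and 9.87. AURKC, a germ cell form, was low at 0.133 and 0.292.

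The kinase that the study targets, CAMK2D, was on at 3.15 and 1.95 FPKM. Of the 3 CaMK2 genes summed here it was not the highest by FPKM, an order that depends on annotated exonic length. CAMK2G, at 11.9 and 11.8 FPKM, held 78.9% and 82.6% of the summed level. CAMK2D held 20.8% and 13.6% and CAMK2B, at 0.0476 and 0.547, 0.314% and 3.82%. The upstream kinase CAMKK2 stood at 28.8 and 32.4 FPKM against 0.462 and 1.21 for CAMKK1. The calmodulin genes CALM3 and CALM2, which encode the same protein, stood at 55.9 and 68.5 and at 23.1 and 21.2 FPKM, with CALM3 higher in both libraries. CAMK4, the lymphoid and neuronal form, and PNCK were off.

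Several steps of glycolysis had a form that held most of the summed level. Of 29 genes of glucose uptake, glycolysis and lactate export in the table, 19 were on (65.5%), a share close to the 62.6% of protein-coding genes. The highest were GAPDH at 938 and 781 FPKM, ENO1 at 403 and 405, PGAM1 at 319 and 332 and TPI1 at 226 and 222. HK2 held 88.0% and 87.4% of the hexokinase total, at 19.6 and 19.7 FPKM against 2.34 and 2.57 for HK1, and ENO1 99.5% and 99.2% of the enolase total. PFKP and PFKL, at 28.3 and 33.04 and 23.2 and 23.1 FPKM, shared the phosphofructokinase total, and the muscle form PFKM stood at 0.256 and 0.259. PKM, the pyruvate kinase of most tissues, stood at 192 and 175 FPKM, and the liver form PKLR was off. LDHA stood at 106 and 92.6 and LDHB at 0.629 and 1.16, the latter with 33.4% of its exonic bases shared. SLC2A3 exceeded SLC2A1 among glucose transporters, at 40.3 and 34.2 and 17.8 and 8.39 FPKM.

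The TCA cycle list had 27 of 29 genes on (93.1%, against 62.6% of protein-coding genes), at a median of 21.9 FPKM. MDH2, mitochondrial malate dehydrogenase, was highest at 130.4 and 134 FPKM, then IDH2, FH, fumarate hydratase, at 65.995 and 54.4, and IDH3G at 49.1 and 42.2. The 2 genes not on are gluconeogenic: PCK1, at 0 and 0.00696, was off and FBP1, at 0.112 and 0, was low, while the mitochondrial PCK2 was on at 29.1 and 30.96 FPKM. ME1, cytosolic malic enzyme, stood at 7.66 and 2.69 FPKM, higher in control 1.

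Serine and one-carbon enzymes were among the highest metabolic genes. Of 22 pentose phosphate, serine and one-carbon genes 19 were on (86.4%, against 62.6% of protein-coding genes) and 9 of them high. PSAT1, which makes phosphoserine, stood at 299.98 and 325 FPKM, SHMT2, mitochondrial serine hydroxymethyltransferase, at 229 and 219, PGD, of the pentose phosphate pathway, at 127 and 137, and TALDO1 at 99.1 and 91.4. PHGDH, the first enzyme of serine synthesis, stood at 63.1 and 61.9 FPKM. SHMT2 lay far above its cytosolic form SHMT1, at 5.98 and 4.79. The glycine cleavage genes GLDC, at 0.00724 and 0.0531, and AMT, overlapping, were off, and TKTL1 had 0 counts in both.

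Amino acid genes were on in 18 of 24 (75%, against 62.6% of protein-coding genes). ASS1, argininosuccinate synthase, stood at 523 and 638 FPKM, the highest of the list, with ASL, the next enzyme towards arginine, at 3.85 and 4.42. The transporters SLC7A5, at 226 and 196, SLC1A5, at 102 and 89.97, and SLC3A2, at 93.6 and 85.3, and glutamine synthetase GLUL, at 102 and 102, were high. The urea cycle genes ARG1, at 0.0329 and 0, and CPS1, at 0.01801 and 0.008805, were off, as was PRODH. ASNS, asparagine synthetase, was low at 0.784 and 0.639 FPKM with 44.6% of its exonic bases shared.

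Of 29 fatty acid and cholesterol genes in the table, 20 were on (69.0%) and 5 off (17.2%), shares close to the 62.6% and 17.4% of protein-coding genes. SCD, the stearoyl-CoA desaturase, stood at 308 and 277 FPKM and held 95.1% and 94.4% of the summed level of the desaturases. FASN stood at 133 and 110.4, ACLY at 79.9 and 88.8, and ELOVL5 at 67.6 and 63.8. CPT1A, which admits fatty acids to mitochondria, was on at 16.5 and 18.2, while CPT1B, overlapping, was off and CPT1C, PPARG and LPL had 0 counts in both.

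Genes that handle nucleoside drugs and the topoisomerases were on in 12 of 16 (75%, against 62.6% of protein-coding genes). TOP2A and TOP2B stood at 45.7 and 32.4 and 32.7 and 29.3 FPKM, and the ribonucleotide reductase subunit RRM1 at 29.4 and 21.4. DCTD, deoxycytidylate deaminase, stood at 28.5 and 28.8. SLC29A1, the nucleoside importer, stood at 16.4 and 27.3 FPKM, DCK, the kinase that activates cytarabine, at 15.3 and 11.6, and SAMHD1, which hydrolyses its triphosphate, at 16.6 and 14.6. CDA, cytidine deaminase, was uneven at 0.202 and 3.05 FPKM from 3 and 62 counts. The efflux pump ABCB1 and the importer SLC28A1 had 0 counts in both.

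By class, driver and metabolic lists held more genes that were on than lineage and receptor lists. Counting each gene once, 93 of 116 driver genes (80.2%) and 115 of 149 metabolic genes (77.2%) were on. The counts were 91 of 140 for kinase genes (65%), 93 of 165 for lineage genes (56.4%) and 53 of 103 for receptor genes (51.5%), beside 62.6% of protein-coding genes. The share off was 24.2% for lineage and 24.3% for receptor genes, 15.7% for kinase, 11.4% for metabolic and 8.62% for driver genes, beside 17.4%. The table held 165 of 216 lineage, 116 of 134 driver, 103 of 118 receptor, 140 of 157 kinase and 149 of 162 metabolic genes. Shares over the full lists are not known, and the part missing was not equal between classes. The lists were chosen by hand with earlier results of these data known, and these shares describe their members in the table only. The lineage lists include markers of other cell types, so the order of the classes depends on which lists were chosen.

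The 2 controls were alike over most genes and apart in a few. Across 15022 protein-coding genes, which are not independent replicates, log2(FPKM + 0.1) had a Pearson r of 0.985 between them. Of 10936 protein-coding genes whose 2 counts summed to at least 50, 84.1% were within 1.5-fold in CPM and 5.08% were over 2-fold apart, 3.45% higher in control 2 and 1.64% higher in control 1. The median log2 ratio of control 2 to control 1 was -0.21 for genes with a transcript GC content of at most 40% and 0.18 for those above 60% (Spearman rho of 0.344 over 10936 genes). As a description of the spread, the chi-square of the 2 libraries' counts over its degrees of freedom was 37.7 for 14017 genes, so the libraries differed by more than sampling noise.

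The 5 genes with the largest fold in each direction were seen mainly in 1 control, though more genes were over 2-fold higher in control 2 (377) than in control 1 (179). CYFIP2, a regulator of actin, had 0 and 133 counts, at least 32.5-fold higher in control 2 against 3 counts. JPH2, a junctional membrane protein, had 1 and 286 counts, and HS6ST2, a heparan sulfate sulfotransferase, 2 and 385. NDRG2 had 0 and 79 counts, at least 19.3-fold higher in control 2, and IGSF10, overlapping, 0 and 87, at least 21.3-fold. In the other direction NPTX2, a neuronal pentraxin, had 64 and 0 counts, at least 29.1-fold higher in control 1. SLC9B2, a sodium-proton exchanger, had 341 and 28 counts, 16.6-fold higher in control 1 in CPM, PCDH7, a protocadherin, 113 and 8, CPLX1 61 and 4, and KRT86, a hair keratin, 72 and 5.

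The HOXA cluster differed between the controls as a block. Of 9 HOXA genes with at least 50 counts all 9 were higher in control 1, with log2 ratios of control 2 to control 1 from -1.31 to -0.45 and a median of -0.99. HOXA3, HOXA5, HOXA6 and HOXA9, 4 of 9, were over 2-fold higher in control 1, beside 1.64% of protein-coding genes. The HOXC genes had a median of -0.19 over 5 genes and ratios from -0.32 to -0.04. GC content of the 9 HOXA transcripts was 43.8% to 60.1%, and its part in the difference was not tested. In the opposite direction HLA-C was over 2-fold higher in control 2, with a log2 ratio of 1.08, and HLA-B had 0.91. Among granule genes CTSG was over 2-fold higher in control 1 and LYZ in control 2, with log2 ratios of -1.34 and 1.47, and CCR2 had a ratio of 1.79.

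**Figure D5:**
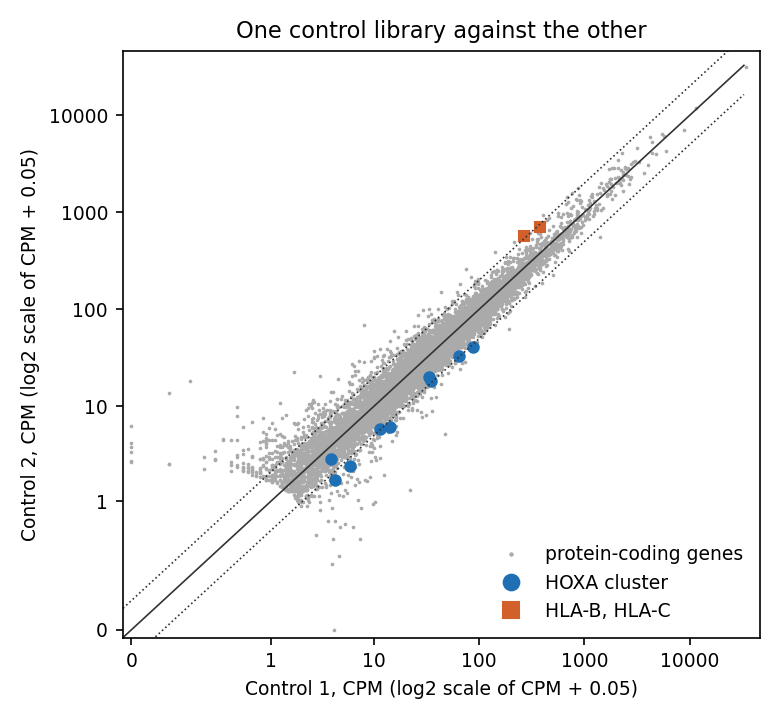
CPM of each protein-coding gene whose 2 counts sum to at least 50, in control 1 (horizontal axis) and control 2 (vertical axis), both on a log2 scale of CPM + 0.05; the solid line is equality and the dotted lines are 2-fold. The 9 HOXA genes lie below equality and HLA-B and HLA-C above it, while 5.08% of all genes lie over 2-fold away.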

How the data were processed

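Poly-A RNA of 6 MOLM-13 libraries was sequenced, and the 2 labelled control, without doxycycline, were used. The authors deposited a table with a read count and an FPKM value per gene. Per the submitters' processing notes HISAT2, HTSeq 0.11.2, DESeq2 1.26.0 and GRCh38 were involved; what each did is not given in the sources used here. The deposited FPKM values matched count, table total and summed GENCODE release 29 exonic length to within 0.5 bases of length for 99.6% of genes in control 2.

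Levels were read from the deposited FPKM values without a further normalization, and CPM was computed from the counts without a prior. Log2 ratios between the 2 controls were computed with a prior of 0.5 counts. Python 3.11.15, pandas 2.3.3, numpy 2.4.6 and scipy 1.17.1 were used, and the code was tested on simulated data. With 1 group of 2 libraries no test was made. Lists of 762 genes in 34 groups were used, 651 of them in the table; the other 111 were not analysed here, and some list members are not reported here. Members and lists were chosen with earlier results of these data known.

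Named genes were the 5 markers, the 4 highest and up to 4 off members of each list, all HOX and CAMK2 genes, the 10 highest genes and the 5 furthest apart each way between controls. Other genes named, the families of related enzymes, the motif CCGGAAG and the RNASE2 and CTSG promoters were chosen after values were seen. The GATA1 promoter and the homeodomains planned for display are not shown. MPO and SPI1 were not matched to the promoter table. Alternatives covered thresholds, scaling, totals, overlapping genes and leaving out a library.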

Additional observations from a re-analysis of the deposited data

How the results depend on the processing

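The number of protein-coding genes that were on, and that of each of the 5 classes of lists, stayed within 1.5 times its value under every alternative run: thresholds multiplied by 0.5 or 2, TPM, CPM, another total, 1 of 2 libraries sufficing, each library alone and only genes with at most 25% of exonic bases shared, the last chosen after seeing the data. Counts in single lists moved more: of 34 lists, 4 left that range by TPM and by CPM, 2 with the threshold multiplied by 0.5, 1 with it multiplied by 2, 2 with 1 of 2 libraries sufficing, 1 with the other total, 2 without overlapping genes, 2 without control 1 and 0 without control 2. They were the stem and progenitor list (3, from 1 to 5), the B cell list (3, up to 6), the non-haematopoietic list (2, from 1 to 4), HOXA (8, down to 3) and HOXB (1, up to 3). The number off was 2620 by FPKM, 1476 by TPM and 1508 by CPM. The number of genes over 2-fold apart between the controls was 556 at a minimum of 50 counts, 853 at 20 counts and 277 at 200 counts, and it was 1740 past 1.5-fold and 101 past 4-fold. The difference in median CpG ratio between promoters of genes on and off was 0.31, with 0.27 for protein-coding genes alone, 0.32 with the threshold multiplied by 2 and 0.35 for genes with 1 start in the table, an alternative chosen after seeing the data. No paired analysis was possible because the libraries form 1 group and no result comes from a test. Genes near 0.1 FPKM rest on few counts, 3.09 and 4.22 for a gene of 2 kb, so low and off are not firmly separated at this depth.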
